A study of Mus musculus with 3 samples.

Results

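The common reference genes were Actb, Gapdh, Gusb, Tbp, Ppia, Ywhaz, Hprt1 and Tfrc, a set often used as a constant scale when RNA of different cells is compared. Members were every gene probe whose name in the array files equals one of these 8 symbols, with Hprt taken for Hprt1. This gave 12 probes for 7 of the genes, among 41174 gene probes under 27656 gene names in all. No probe carries the name Gapdh; 3 probes tied to Gapdh by accession or gene number are given as values outside the rule. Of the 12 probes, 11 passed the filter on dim spots and were tested, and 1 probe for Ywhaz did not pass it.

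RNA of mouse embryonic stem (ES) cells, untreated and grown with serum and leukemia inhibitory factor, was set against RNA of mouse embryonic fibroblasts (MEF) grown in medium with 10% fetal bovine serum. On each of 3 two-channel Agilent arrays, 1 ES cell replicate was labelled with Cy3 and MEF with Cy5, with no dye swap, so a bias of the dyes at a single probe cannot be told apart from the cell type. The labels give no strain, genotype, line or passage for either cell type, and no age of the embryos behind the MEF. The series asks which genes the ES cells express differently from MEF. Ratios are log2 of ES cells over MEF and fall below 0 where ES cells had less; they were taken after background correction and loess, while signals are given as scanned. The series' design text gives the Cy5 sample another name at 1 place, and the sample labels, which call it MEF, were followed. MEF served as 1 control sample, and no label says whether the ES cell replicates came from different cultures. The p-values therefore reflect array-to-array spread alone, and that spread may be technical.

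The median gene spot read 398 to 421 scanner units for ES cells (background 45 to 56) and 381 to 391 for MEF (background 38 to 41.5). The cell types were checked against their markers: 9 of 9 ES cell markers were called higher in ES cells, with a median of 3.75, and 10 of 10 fibroblast markers were called lower, with a median of -4.39. Each marker was read by its brightest probe. Read that way, 42.8% of all genes were called, 20.4% higher and 22.4% lower in ES cells. Of 15 macrophage and leukocyte markers, 14 were called lower in ES cells, and all 15 were well above background in both channels. Of all gene spots, 68.6% to 70.6% were well above background for ES cells and 68.2% to 74.0% for MEF. The normalized signals of these 15 markers summed to 18403 to 19057 for ES cells and to 640398 to 675376 for MEF. Transcripts known from macrophages were thus measured in the MEF RNA beside those of fibroblasts. Of 14 proliferation markers, 13 were called higher in ES cells. In such bulk RNA, fewer cells of a type and less RNA per cell cannot be told apart.

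Reference genes are chosen because nearly all cells need their products. They span unlike tasks: Actb encodes a cytoskeletal actin, Gapdh a glycolytic enzyme, Gusb a lysosomal glycosidase, Tbp the TATA-binding protein of the basal transcription machinery, Ppia cyclophilin A, Ywhaz an adaptor of the 14-3-3 family, Hprt1 an enzyme of purine salvage, and Tfrc the receptor that takes up iron-loaded transferrin. A reference gene serves as a scale only where its own RNA level is alike in the cells compared, and several of these levels are known to follow cell shape, growth or iron supply.

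The probes are 60-base oligonucleotides, and each reads only its own short stretch of a transcript. A stretch of each called gene and those of the tested but uncalled Ppia and Ywhaz probes are shown here as the array files give them, in lower case and 5′ to 3′. The stretches of Actb A_51_P251154, the brighter Actb probe, and of Gusb A_52_P160936 are not shown. Of the stretches shown, those that stand whole come first, and the first 30 bases of 5 further probes follow. No annotation of the files' genome build, mm7, was used, so exons and untranslated regions were not assigned.
Ppia A_52_P265542: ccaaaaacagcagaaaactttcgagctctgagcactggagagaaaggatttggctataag
Tbp A_51_P461828: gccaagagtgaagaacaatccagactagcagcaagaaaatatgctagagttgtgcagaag
Tbp A_51_P461836: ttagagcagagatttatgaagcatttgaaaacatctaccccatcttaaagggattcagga
Ywhaz A_52_P225260: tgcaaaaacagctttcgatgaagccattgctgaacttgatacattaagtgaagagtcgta
Actb A_51_P173760: cttttgactcaggatttaaaaactggaacg
Gusb A_51_P211491: ttagttttttggccttggctttgtgaactc
Hprt A_51_P239673: gtgttggctgtattttcccactttcagtaa
Tfrc A_52_P228236: tgagcaagatcacattaacaaagactagtt
Ywhaz A_51_P480709: cagcttttcatgtaaattagtcttttggtt

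Of the 11 probes tested, 9 differed between ES cells and MEF past the threshold, an adjusted p under 0.05 with limma (Benjamini-Hochberg over 29500 probes) and a ratio of at least 2-fold. Among all probes tested, 41.0% passed it, 19.9% as higher and 21.1% as lower in ES cells. Tfrc, Hprt, both probes of Tbp and 1 probe of Ywhaz were higher in ES cells (5 probes), and both probes of Actb and of Gusb were lower (4 probes). Ppia and a second Ywhaz probe were also above 0 on all arrays but stayed under 2-fold. The signals of the 3 ES cell replicates and those of MEF overlapped at none of the 11 probes. Overlap was not counted over all probes, so this does not set the members apart. Without the fold minimum, 95.4% of all probes passed, so the size of a ratio says more here than its p.

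**Figure D1:**
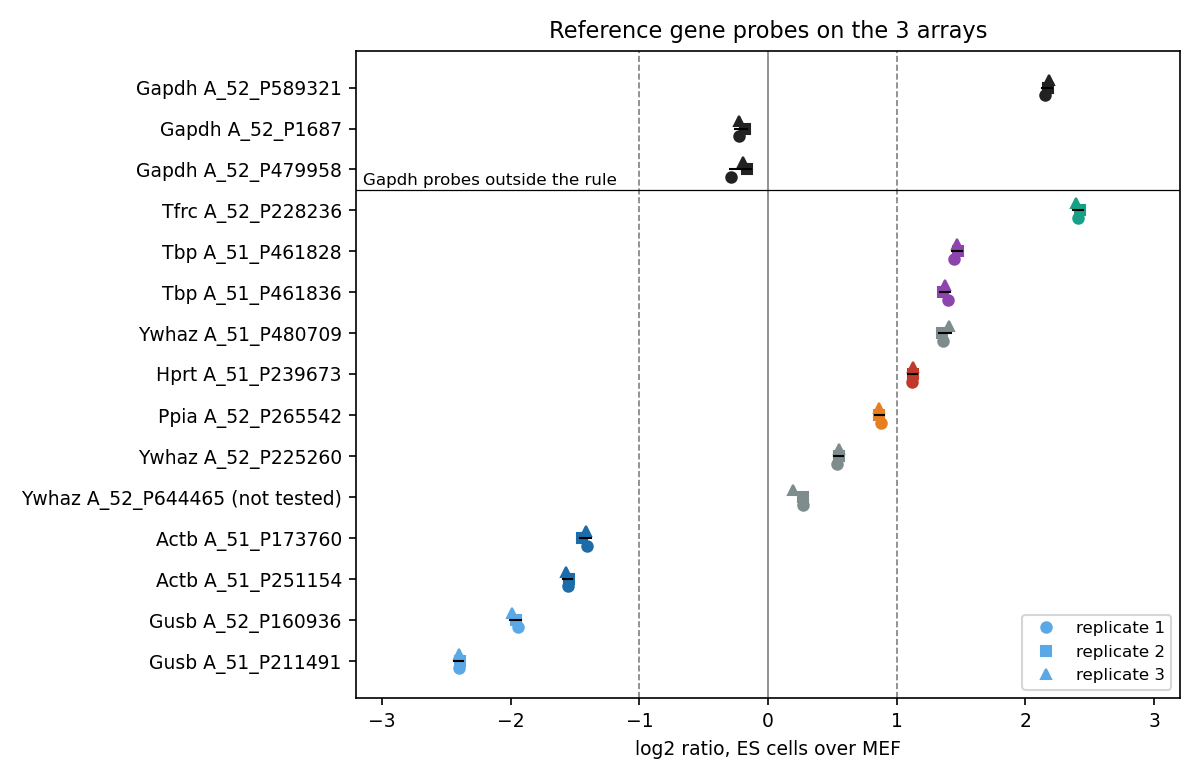
Log2 ratio of ES cells over MEF (x axis) for each reference gene probe (rows), with 1 marker per array and the 95% confidence interval of the mean as a black line; dashed lines mark 2-fold. Tfrc, Tbp, Hprt and 1 Ywhaz probe lie right of 1, Actb and Gusb lie left of -1, and the Gapdh probes that stand outside the rule lie at -0.22, -0.21 and 2.17.

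Actb, the gene of cytoplasmic beta-actin, was lower in ES cells at both of its probes. The probe A_51_P173760, for NM_007393 at chr5:141936530-141936471 (mm7, as in the file, which lists the higher coordinate first for some probes), gave ES cell signals of 575, 568 and 563 and MEF signals of 1366, 1393 and 1394. Every ES cell value was below every MEF value. The log2 ratios were -1.41, -1.45 and -1.41, with a mean of -1.42 ± 0.022 (SD, n = 3), a level 2.68-fold lower in ES cells (limma, adjusted p = 5.48e-07).

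The second Actb probe, A_51_P251154, is placed by the file at chrX:147192950-147193009, on another chromosome, and its accession, BC016624, is described there only as similar to beta-actin. Its ES cell signals were 6385, 6482 and 6622 against 16403, 16585 and 17551 in MEF. Its ratio of -1.56 ± 0.0091 (SD, n = 3) is 2.94-fold lower in ES cells. The ratios of the 2 probes differed by 0.14 ± 0.028 (SD over arrays), a small step beside their distance from 0. Which copy of the gene the second probe reads was not determined.

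The other actins were lower as well. Of 5 listed, 4 had a probe, and all 4 were called lower in ES cells, and every listed gene was read by its brightest probe. Read that way, 42.8% of all genes were called, 20.4% higher and 22.4% lower. The cardiac and skeletal muscle actins Actc1 and Acta1 stood at -4.32 and -3.80. The smooth muscle actins Acta2 and Actg2 stood at -2.63 and -2.42, and the 5 probes of Acta2 ranged from -5.83 to -1.16. Their median of -3.21 was below both Actb probes, and the median over all genes was -0.050. Fibroblast markers moved the same way, as given above, and their part in the actin values was not tested.

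Gapdh, the glycolytic enzyme most often taken as a reference, could be read only outside the rule. The probes A_52_P479958 and A_52_P1687 carry names of Gapdh-like genes and list 4 RefSeq accessions each, Gapdh's among them, so they may read several near-identical copies. Another probe, A_52_P589321, carries Gapdh's gene number as its name. The file places the last at chr6:125188064-125188005, within the stretch chr6:125188172-125188003 given for A_52_P479958. Both sequences are shown because they share a run of 14 bases, in capitals, and gave ratios of opposite sign.
Gapdh A_52_P479958: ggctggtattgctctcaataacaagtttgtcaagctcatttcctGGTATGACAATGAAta
Gapdh A_52_P589321: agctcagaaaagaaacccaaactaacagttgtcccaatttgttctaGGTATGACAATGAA

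At A_52_P479958, ES cell signals were 143373, 174389 and 167084 and MEF signals 181248, 199120 and 201444, a ratio of -0.22 ± 0.064 (SD, n = 3). At A_52_P1687 they were 152633, 164294 and 153159 against 185361, 189101 and 187258, a ratio of -0.21 ± 0.026 (SD, n = 3). At both, ES cells lay below MEF on every array, by 1.16-fold, and neither passed the fold minimum (limma, adjusted p = 0.00215 and 2.81e-04). With the scanner software's processed signals the ratios were only -0.040 and -0.020, with adjusted p of 0.310 and 0.287 by limma, so this small difference depends on the processing.

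At A_52_P589321 the order was the opposite, with ES cell signals of 2317, 2301 and 2285 against MEF signals of 459, 456 and 450. Its ratio of 2.17 ± 0.018 (SD, n = 3) is 4.50-fold higher in ES cells, with an adjusted p of 2.35e-07 by limma. The 2 chromosome 6 probes thus differed by -2.39 ± 0.050 (SD over arrays), more than any same-gene pair of the members. The file gives A_52_P479958 a span of 170 bases for a 60-base probe, and A_52_P589321 an unbroken one. The shared run stands at bases 45 to 58 of A_52_P479958 and at bases 47 to 60 of A_52_P589321. By the coordinates, the rest of A_52_P589321 falls within the stretch that A_52_P479958 skips. Its ratio therefore need not be that of the RNA read by A_52_P479958. Which transcript A_52_P589321 reads was not determined.

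By their descriptions 16 probes are for Gapdh or Gapdh-like sequences, and 15 of them were tested. Their ratios ran from -0.29 to 2.17 with a median of 0.058; 2 were called higher and 0 lower in ES cells by limma at the same threshold, and 6 lay below 0 with an unadjusted p under 0.05. Glycolytic genes other than Gapdh had a median ratio of 0.0039. Of 17, 5 were higher, with Ldhb, the heart-type lactate dehydrogenase subunit, highest at 2.10. Eno2, the neuronal enolase, was the 1 called lower, at -2.62, and 11 did not pass. With no normalization between the channels the median of this list was -0.043, so its sign is not settled.

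Gusb, the lysosomal beta-glucuronidase, had the lowest ratio of the members. Its probe A_51_P211491 (NM_010368, chr5:129227146-129227087) gave ES cell signals of 6003, 6054 and 6016 and MEF signals of 27881, 27821 and 28439. MEF values were well apart from ES cell values on every array. The ratio was -2.40 ± 0.0045 (SD, n = 3), a level 5.29-fold lower in ES cells (limma, adjusted p = 1.94e-07), and 5.91% of all probes had a lower one.

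The second Gusb probe, A_52_P160936 (BC004616, chr5:129237567-129237508), gave 1485, 1477 and 1444 in ES cells and 5011, 5048 and 5199 in MEF. Its ratio of -1.96 ± 0.026 (SD, n = 3) is 3.90-fold lower in ES cells. The ratios of the 2 probes differed by -0.44 ± 0.025, beyond their spread over arrays.

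Other lysosomal enzymes that break down glycans were mostly lower in ES cells too. Of 20 glycosidases, sulfatases and their partners, 15 were called lower, 1 higher and 4 neither, with a median of -1.91. Arsb, the sulfatase of dermatan sulfate, was lowest at -3.25, and Manba, the lysosomal beta-mannosidase, was the 1 called higher at 1.37. Lysosomes are abundant in macrophages, whose 15 markers had a median ratio of -4.86; their part in the Gusb and lysosomal values was not tested.

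Tbp, which binds the TATA box as a subunit of the general transcription factor TFIID, was higher in ES cells at both probes. A_51_P461828 (NM_013684, chr17:13750508-13751175) gave ES cell signals of 2406, 2487 and 2448 against MEF signals of 779, 793 and 801. Its ratio was 1.47 ± 0.016 (SD, n = 3), a level 2.76-fold higher (limma, adjusted p = 4.22e-07). A_51_P461836 (chr17:13753607-13753666) gave 6212, 5942 and 5912 against 2074, 2039 and 2042, a ratio of 1.38 ± 0.020 (SD, n = 3). All ES cell values lay above all MEF values at either probe. The probes differed by 0.088 ± 0.035, the closest pair for one gene among the members.

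The TAF proteins join Tbp in TFIID. Of 13 measured, 4 were called higher in ES cells and 0 lower by limma; 1, Taf13 at -0.18, was below 0 with an unadjusted p under 0.05, and Taf10 stood at -0.01. The median was 0.65. Taf7 was highest at 3.23, followed by Taf5 at 3.01, Taf8 at 1.72 and Taf4a at 1.44. The members of this one complex thus spread over more than 3 log2 units, and Tbp lay among its higher genes. Proliferation markers were higher in ES cells, with a median of 1.74, and their part in the values of the genes higher in ES cells was not tested.

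Ppia, cyclophilin A, a prolyl isomerase that helps proteins fold, had the smallest difference of the 7 genes when each is read by its brightest probe. Its probe A_52_P265542 (NM_008907, chr11:6370122-6370275, a span of 154 bases for 60 bases of probe) gave ES cell signals of 64226, 64548 and 63716. MEF signals were 32716, 32679 and 33012, all below those of ES cells. The ratio was 0.87 ± 0.0077 (SD, n = 3; 95% confidence interval 0.83 to 0.90), 1.82-fold higher in ES cells with an adjusted p of 1.17e-06 by limma, short of the fold minimum. It passed the minimum at 1.07 when the arrays were centred on the median in place of loess, which moved the median of all probes by 0.17.

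Other cyclophilins moved in both directions. Of 13, 6 were called higher in ES cells, 2 lower and 5 neither, with a median of 0.93. Ppwd1, a nuclear member, was highest at 2.57. Ppic and Ppib, members of the secretory pathway, were the 2 called lower, at -2.61 and -1.63.

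Ywhaz, the zeta form of the 14-3-3 adaptors that bind phosphorylated proteins, gave a different answer at each probe. The file places A_51_P480709 (NM_011740) at chr15:36881407-36881395, a span of only 13 bases for 60 bases of probe. This probe gave ES cell signals of 65839, 65395 and 66020 against MEF signals of 23533, 23164 and 23172. Its ratio of 1.37 ± 0.027 (SD, n = 3) is 2.59-fold higher in ES cells (limma, adjusted p = 7.15e-07). A_52_P225260 (chr15:36886074-36885934) gave 13051, 12713 and 12364 against 7877, 7567 and 7522. Its ratio of 0.55 ± 0.0090 (SD, n = 3) is 1.46-fold higher and did not pass the fold minimum.

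ES cells were above MEF at both of these tested Ywhaz probes, but the ratios differed by 0.82 ± 0.025, the widest gap between tested probes of a member. Their mean, 0.96, lies just under the 2-fold line. The remaining Ywhaz probe, A_52_P644465 (AK050511), is placed on another chromosome, at chr1:155343915-155343856. It gave 122, 110 and 96.1 in ES cells and 88.7, 87.5 and 83.3 in MEF, was not well above background on any array in either channel, and was not tested. Its log2 ratios of 0.27, 0.27 and 0.20 come from signals near background and are drawn marked as not tested.

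Of the 6 other 14-3-3 genes, Ywhae was called higher at 1.05 and Ywhab lower at -1.01, on the edge of the threshold. The count of lower genes in this list was 0 under 7 of 15 alternatives, among them processed signals, median centring, no normalization and leaving out replicate 3, and the other probe of Ywhab gave -0.049. Sfn stood at 0.80, Ywhaq at 0.71, Ywhag at 0.45 and Ywhah at 0.075, and these did not pass. The 3 probes of Ywhae ran from -1.01 to 1.05 and so were called in opposite directions, a range about as wide as that over the 6 genes.

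Hprt (Hprt1), which returns hypoxanthine and guanine to nucleotides, was higher in ES cells. Its only probe, A_51_P239673 (NM_013556, chrX:48113832-48113891), gave ES cell signals of 77632, 79871 and 79675. MEF signals were 33686, 34030 and 34785, less than every ES cell value. The ratio was 1.12 ± 0.0047 (SD, n = 3; 95% confidence interval 1.09 to 1.16), 2.18-fold higher in ES cells (limma, adjusted p = 5.76e-07).

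Other genes of purine metabolism were called in 1 direction. Of 18 in a list that joins salvage with new synthesis, 8 were called higher in ES cells and 0 lower by limma, and 10 did not pass; 6 lay below 0 with an unadjusted p under 0.05. Gmpr, lowest at -0.53 with an adjusted p of 1.81e-05, stayed under the fold minimum. The median was 0.92. Ppat, the first enzyme of purine synthesis, was highest at 3.07, and the called genes Prps1, Prps2, Gart, Pfas, Adsl, Gmps and Paics, at 1.23 to 2.69, also serve synthesis. Not all genes of synthesis were called: Impdh2 at 0.98, Atic at 0.87, Adss at 0.77 and Impdh1 at -0.34 did not pass. The salvage genes Aprt at -0.51, Adk at -0.25, Pnp at -0.12 and Ada at 0.82 did not pass. The other probe of Aprt gave 0.72, so the sign of Aprt depends on the probe. Genes outside the naming rule were singled out here after their values were seen.

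Tfrc, the transferrin receptor, had the highest ratio of the members. Its probe A_52_P228236 (NM_011638, chr16:32306693-32306752) gave ES cell signals of 7751, 7800 and 7647 and MEF signals of 1276, 1276 and 1300. Replicates lay close together and far from MEF. The ratio was 2.41 ± 0.016 (SD, n = 3; 95% confidence interval 2.37 to 2.45), 5.32-fold higher in ES cells (limma, adjusted p = 2.05e-07), and 3.74% of all probes had a higher one.

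Among other genes of iron uptake and storage more were lower than higher in ES cells. Of 15, 6 were called lower in ES cells, 1 higher and 8 neither, with a median of -0.73. Hfe, a partner of the transferrin receptor, was lowest at -3.66. The iron exporter Slc40a1 stood at -2.88, the ferritin heavy chain Fth1 at -2.83 and transferrin itself, Trf, at -1.63. Ireb2, an iron-sensing RNA-binding protein, was the 1 called higher, at 1.00 on the edge of the threshold, and without replicate 3 the count of higher genes was 0. The second transferrin receptor, Tfr2, stood at -0.51. Several of these genes are also active in macrophages, and the part of macrophage transcripts was not tested.

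**Figure D2:**
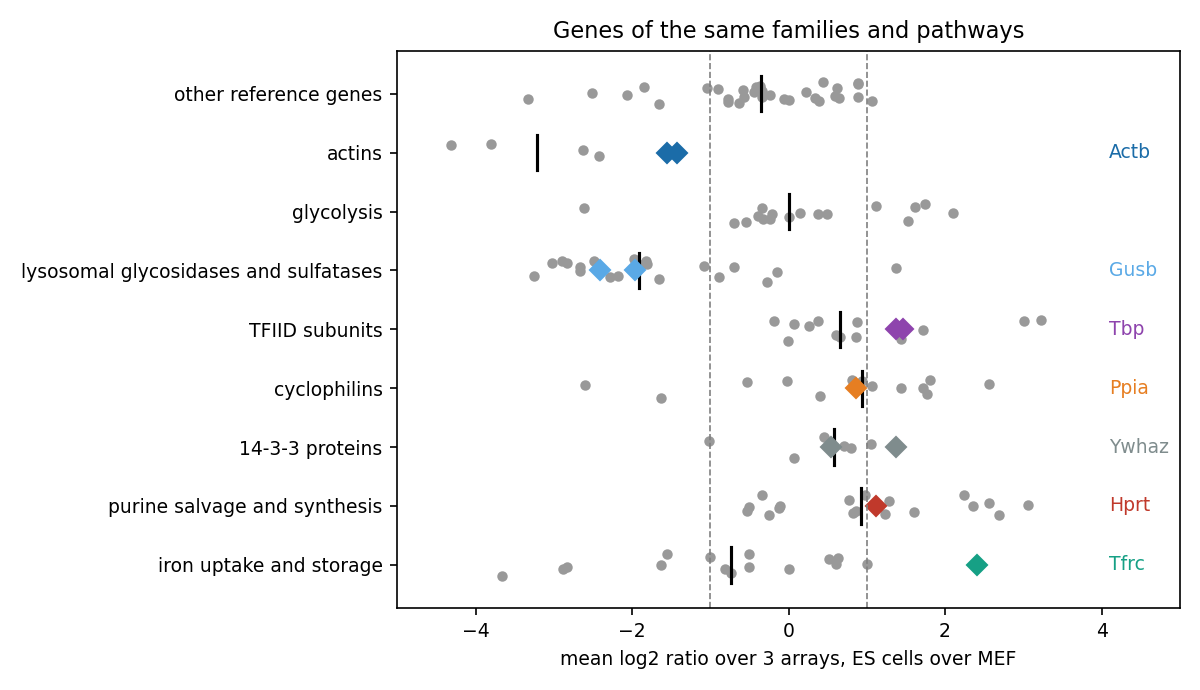
Mean log2 ratio of ES cells over MEF (x axis) of genes in 9 lists (rows; grey points, the brightest probe of each gene; black lines, list medians) with the reference gene of that family as coloured diamonds, 1 per tested probe. The rows of other reference genes and of glycolysis carry no diamond. Gusb, at -2.40 and -1.96, lies below the median of its lysosomal list at -1.91, Tfrc lies above all genes of its list, and Actb lies above all 4 other actins.

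The signals show how far the channels were apart at each probe. Within an array, the 10 spots of a probe varied little: for the 6 member probes printed 10 times, the SD of log2 ratios between spots was 0.021 to 0.071. Single spots of Ppia ran from 0.79 to 0.93 and those of Gusb A_51_P211491 from -2.48 to -2.35. No member spot was saturated or flagged as an outlier (0 of each). The 6 other probes had 1 spot per array.

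**Figure D3:**
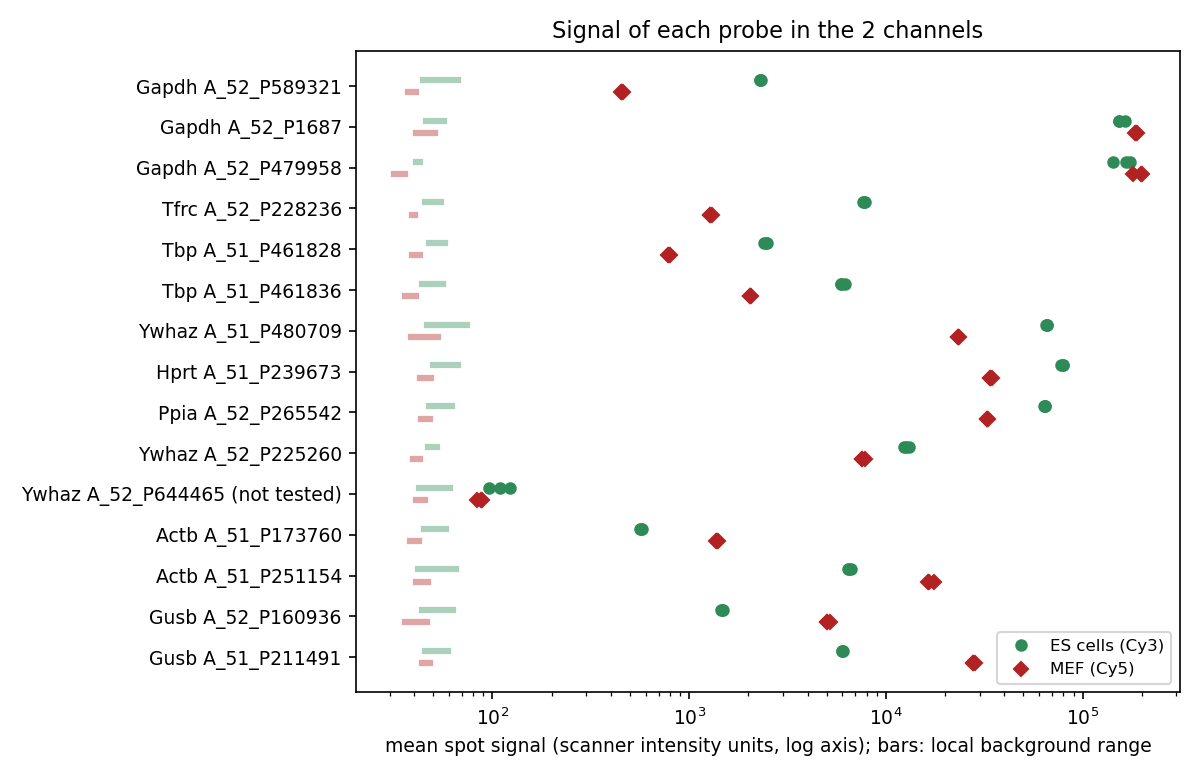
Mean spot signal of each probe (x axis, scanner intensity units, log scale) on the 3 arrays, with ES cells as circles and MEF as diamonds; pale bars give the range of the local background. Signals of the 2 cell types do not overlap at any of the 11 tested member probes, which was not counted over all probes. At Ywhaz A_52_P644465 the 122, 110 and 96.1 of ES cells lie near its background.

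Among all 29500 probes the median ratio was -0.023 and the median size 0.80, and 34.0% lay within 0.5 of 0. None of the 7 genes, each read by its brightest probe, lay within 0.5 (0 of 7), and 6 of 7 were at least 1 in size. Their median size was 1.38, and it ran from 0.87 to 2.41. Larger ratios than that of Tfrc were found at 9.60% of all probes, and larger ones than that of Gusb A_51_P211491 at 9.69%. For Ppia the share was 46.7% and for Ywhaz A_52_P225260 it was 63.2%. With 7 genes these are descriptions of the members only.

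**Figure D4:**
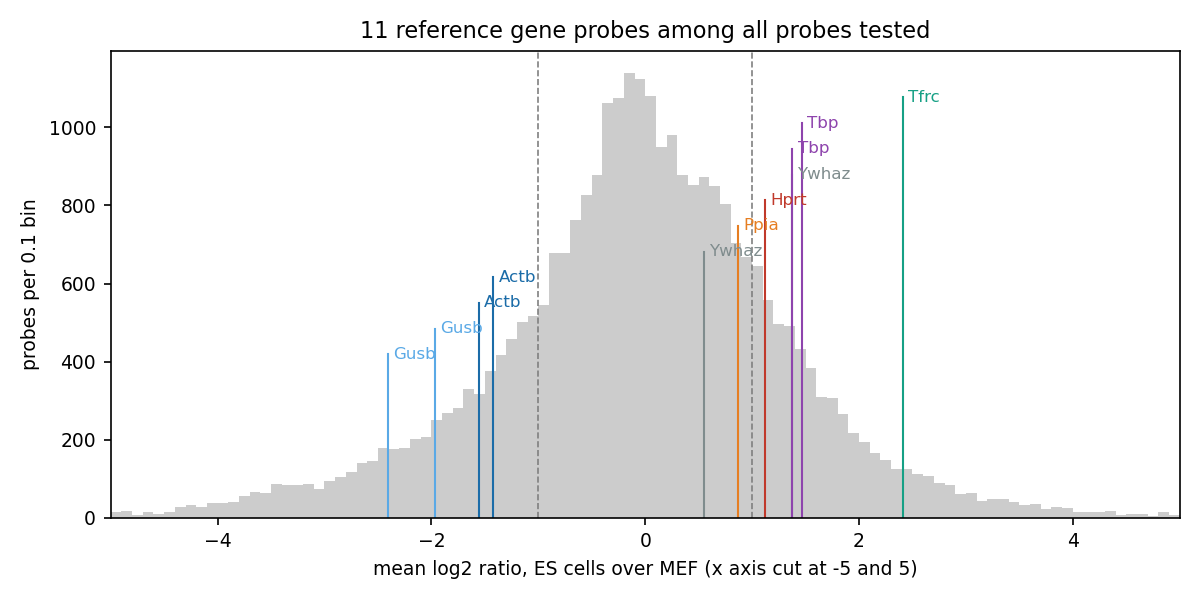
Histogram of the mean log2 ratio of all 29500 probes (grey, probes per 0.1 bin), with the 11 tested reference gene probes as coloured lines and the 2-fold lines dashed. The bulk of probes lies around -0.023 with no tested member probe within 0.5 of 0. The heights of the coloured lines carry no value.

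A further 32 genes in use as references were measured. Of these, 25 did not pass the threshold, 6 were called lower and 1 higher in ES cells, and 13 lay within 0.5 of 0. These counts hold for the brightest probe of each gene. Read that way, 42.8% of all genes were called, 20.4% higher and 22.4% lower, and 34.0% of all probes lay within 0.5. Among the uncalled of the 32 genes, another probe lay past 2-fold for Nono (2.26), Rps18 (2.08), Sdha (1.43), Atp5b (1.27), Ipo8 (1.03) and Eef1a1 (-1.30). Of the called genes, Rplp0 had another probe under 2-fold, at -0.71. Their median size was 0.60, against 1.38 for the 7 members. Their median ratio was -0.35, and it was 0.056 when all probes of a gene were averaged, so its sign depends on the choice of probe. Under median centring 4 of them, and with the scanner software's processed signals or no normalization 3, were called higher.

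The other reference gene closest to 0 was Pgk1, a glycolytic kinase. Its ratios were -0.02, 0.03 and 0.00, a mean of 0.0039 ± 0.027 (SD, n = 3) with an adjusted p of 0.827 by limma; its second probe gave 0.51. Next came Nono, an RNA-binding nuclear protein, at -0.062, whose other probe gave 2.26. Polr2a, the large subunit of RNA polymerase II, followed at 0.22, the chaperone Canx at -0.24 and the proteasome ATPase Psmc4 at 0.34. With 1 probe, Polr2a could not be checked against a second one.

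Farther from 0, B2m, the light chain of MHC class I, stood at -2.51 and the tubulin Tuba1a at -2.07, both called lower in ES cells. On the other side, Mrpl19 and Cyc1, both mitochondrial, stood at 0.89 and did not pass the fold minimum.

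Set against each other rather than against the array, the 7 genes formed 21 pairs. In 14 pairs the ratios differed by at least 2-fold and in 10 by at least 4-fold. From lowest to highest the order was Gusb, Actb, Ppia, Hprt, Ywhaz, Tbp and Tfrc. Of the neighbours in it, only Ywhaz and Tbp did not differ beyond their spread, at 0.0047 ± 0.030 (SD over arrays). That order takes the brightest probe of Ywhaz; by its other probe, at 0.55, Ywhaz would come below Ppia.

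Hprt differed from Ppia by 0.26 ± 0.011 and from Tbp by -0.25 ± 0.022. Actb, read here by its brighter probe A_51_P251154, whose gene copy was not determined, differed from Gusb by 0.85 ± 0.0070. The chromosome 5 probe of Actb stood at -1.42, which leaves its place in the order unchanged. The farthest pair was Gusb and Tfrc, at -4.81 ± 0.012, so a Gusb-based and a Tfrc-based scale would differ 28.1-fold between these RNAs. The sign was the same on every array in 20 of 21 pairs. No test was run on the pairs.

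Used as a scale, a gene shifts every probe by its own ratio, so the counts that follow restate the ratios above in numbers of calls and are no further result. With the array-wide loess, 5860 probes were called higher and 6235 lower in ES cells. Setting Actb to 0 on every array gave 20264 higher (68.7%) and 1478 lower (5.01%); its chromosome 5 probe, an alternative chosen after seeing the data, gave 19068 (64.6%) and 1709 (5.79%). Setting Gusb to 0 gave 25170 higher (85.3%) and 639 lower (2.17%).

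The genes with higher levels in ES cells shift all probes downward. Ppia as the scale gave 2058 probes higher (6.98%) and 13493 lower (45.7%), and Hprt gave 1515 (5.14%) and 16307 (55.3%). Ywhaz gave 1161 (3.94%) and 18641 (63.2%), and Tbp 1153 (3.91%) and 18676 (63.3%). With Tfrc only 335 probes (1.14%) were higher and 25875 (87.7%) lower.

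The mean ratio of the 7 genes was 0.46 ± 0.0024 (SD over 3 arrays), while the genes themselves varied around it with an SD of 1.75. As a scale this mean gave 3447 probes higher (11.7%) and 9351 lower (31.7%). The shared Gapdh probe A_52_P479958, outside the rule, gave 7337 higher (24.9%) and 5148 lower (17.5%).

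**Figure D5:**
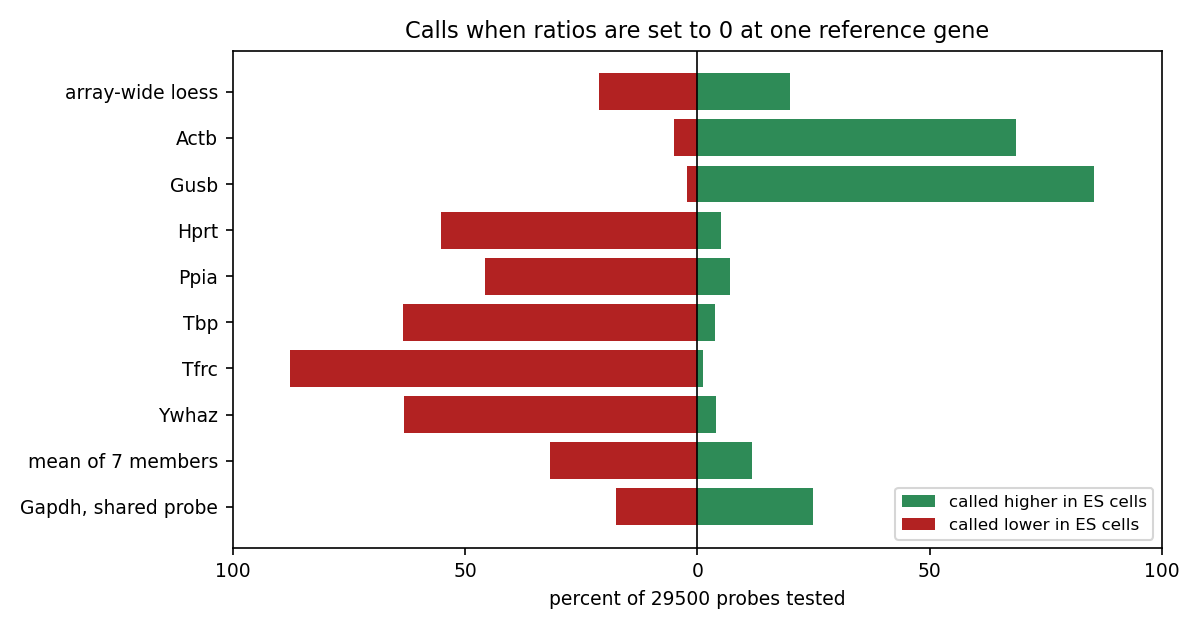
Percent of the 29500 probes called higher (green, right) or lower (red, left) in ES cells when ratios are set to 0 at 1 reference gene, at the mean of 7 genes, or left at the array-wide loess. Bars start at 0; higher calls run from 1.14% with Tfrc to 85.3% with Gusb.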

How the data were processed

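A set of 3 Agilent 2-colour arrays, each with 1 ES cell replicate (Cy3) and MEF RNA (Cy5), were analysed, and the samples were grouped by the labels. Images were read with Agilent Feature Extraction, for which the header of the first array's file gives a grid placement version of 9.5.3.1. Coordinates are those of build mm7. The authors deposited spot and background intensities, without background subtraction. The deposited log10 ratio of processed signals is MEF over ES cells. The authors' log2 value table holds the same with its sign turned (r = 0.998 to 1.00); its column medians are 0.213, 0.0859 and -0.143, so it is not centred. It lies within 0.01 of the turned ratio for 85.4% to 87.8% of probes, and what was done to the others is unknown. Both were used as alternatives. Other deposited columns (flags, names, sequences) served as given.

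Intensities were corrected by normexp (offset 50) and loess with control spots at weight 0, in limma 3.58.1 under R 4.3.3. Spots with an outlier flag (117 to 144 an array) were dropped, and the remaining spots of each probe averaged. Probes well above background in 1 channel on all arrays were kept; 29500 were tested by limma against 0, with Benjamini-Hochberg adjustment. The brightest probe stood for a gene in lists, pairs and scales. Names came through RefSeq accessions of GRCm38.p6 for 22951 probes, by symbol, synonym or gene number for 10062, and from the files for 8161. The number of arrays limits the precision. The procedure was tested on simulated data.

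The members and lists were chosen with earlier results of these data known. Named genes were all members; of the other references the 5 closest to 0 and the 3 highest and lowest; of other lists the highest and lowest called gene, with all actins and 14-3-3 genes. Further genes were named after their values were seen. Not every gene under this rule is reported here. Alternatives covered signal, background, normalization, filters, probe choice, call rule and replicates.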

Additional observations from a re-analysis of the deposited data

How the results depend on the processing

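Every tested member probe kept its sign under every alternative in which it had a value (190 of 190 values). Some alternatives could not change a member's ratio, among them the filters on dim and saturated probes, the outlier setting and the call rules. The authors' value table nearly repeats the processed signals, so this count overstates how far the ratios were varied. Leaving out each replicate in turn gave 9 member probes called each time, with 5809 to 5914 of all probes higher and 6175 to 6267 lower. By the brightest probe of each gene, 2 members were called lower. With the mean of all probes of a gene, 5 members were called, 3 higher and 2 lower, and 3832 genes were higher and 4049 lower, because genes rather than probes are counted; Ywhaz then stood at 0.96. Without a fold minimum, 13851 probes were higher and 14289 lower. With processed signals, scales set on Actb and Gusb gave 2479 and 1295 probes lower, and those on Hprt, Ppia, Tbp, Tfrc and Ywhaz gave 2657, 3347, 2016, 768 and 2207 higher; the cause was not tested. The 14 pairs at least 2-fold apart were 14 under each alternative tried, all chosen after seeing the data. Each ratio already sets ES cells against MEF on the same array; the replicate numbers mark a single group of samples, so no further block was fitted.

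Slide and scan were common to the 3 arrays, and no batch was tested. Dim probes are limited by background: the offset shrinks their ratios, and Ywhaz A_52_P644465 was not tested.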
